A study of Homo sapiens with 12 samples.

Results

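HCT116 cells, a human epithelial line derived from a colon carcinoma, were transfected with either of 2 different siRNAs against the same gene, NFYA, and the RNA of the 2 sets of cultures was compared directly. The groups were siTotal1 (siRNA 1 to all NFYA transcripts) and siTotal2 (siRNA 2 to all NFYA transcripts), with 2 libraries each, which is 4 of the 12 libraries of the study. The members were every gene with enough reads to be tested in these libraries, 17730 of the 63677 listed. Cells were seeded at 25000 per well, received 62.5 nM siRNA with a lipid reagent a day later, and were collected 72 h after transfection, when polyadenylated RNA was taken for stranded libraries. Mock cultures (transfected with 0 nM siRNA) and siControl cultures (a non-targeting siRNA at the same dose), also with 2 libraries each, served to say which siTotal group stood apart. Libraries of a group are called biological duplicates in the design text, so the p-values below measure the spread between duplicate cultures of 1 cell line and 1 siRNA sequence.

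NFYA is the DNA-binding subunit of NF-Y, a heterotrimeric transcription factor completed by the NFYB and NFYC proteins, which recognises the CCAAT box of many promoters. A small interfering RNA is a short duplex of which an Argonaute protein keeps a single strand, usually the antisense or guide strand, and cuts transcripts that pair with it along its length. The bases just behind the 5′ end of the guide, its seed, can also pair with unrelated transcripts in the manner of a microRNA and lower them. For this reason studies use more than 1 siRNA per gene, and a direct comparison of 2 siRNAs to 1 gene measures everything in which the 2 sets of cultures differ.

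The 2 sequences are printed because the later results refer to them, with bases 2 to 8 of the antisense strand and their target in the sense strand in capitals. Each is 19 bases long without its overhangs. The siRNA numbers are tied to these sequences here only by the order in which the labels list them.
siRNA 1, sense: acuagaggcagAAGGGAAa
siRNA 1, antisense: uUUCCCUUcugccucuagu
siRNA 2, sense: uggugaaggugGACGAUUu
siRNA 2, antisense: aAAUCGUCcaccuucacca
Both lie in coding sequence and matched the same 2 annotated NFYA transcripts, the first at chr6:41093049-41093067 in exon 8 of 10 and the second at chr6:41094443-41094461 in exon 9 (GRCh38, plus strand). Both have 47.4% G and C.

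NFYA itself was not called different between the 2 siRNAs. NFYA had 47.9 and 46.8 CPM in siTotal1, against 46.0 and 46.2 CPM in siTotal2. The controls held more, 55.2 and 59.1 CPM in mock and 57.4 and 57.5 CPM in siControl. The difference between the siTotal groups was 0.04 (log2, SE 0.05, adjusted p = 0.58) by edgeR's quasi-likelihood test, and both groups were called lower than both controls. The partner subunits were slightly higher in siTotal1. NFYB had 59.3 and 57.5 CPM in siTotal1, against 52.6 and 52.8 CPM in siTotal2, a difference of 0.15 (adjusted p = 0.027). NFYC had 101 and 95.9 CPM in siTotal1, against 86.1 and 83.3 CPM in siTotal2, a difference of 0.21 (adjusted p = 2.9e-04). Both partners were higher than both controls in each siTotal group, with 33.6 and 33.8 CPM in mock and 31.5 and 33.6 CPM in siControl for NFYB and 57.1 and 58.9 CPM in mock and 56.0 and 55.0 CPM in siControl for NFYC. A gene-level count does not show protein, and reads of OARD1, which overlaps NFYA on the opposite strand, may be counted with it, as the strand setting used by the authors is unknown here.

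**Figure D1:**
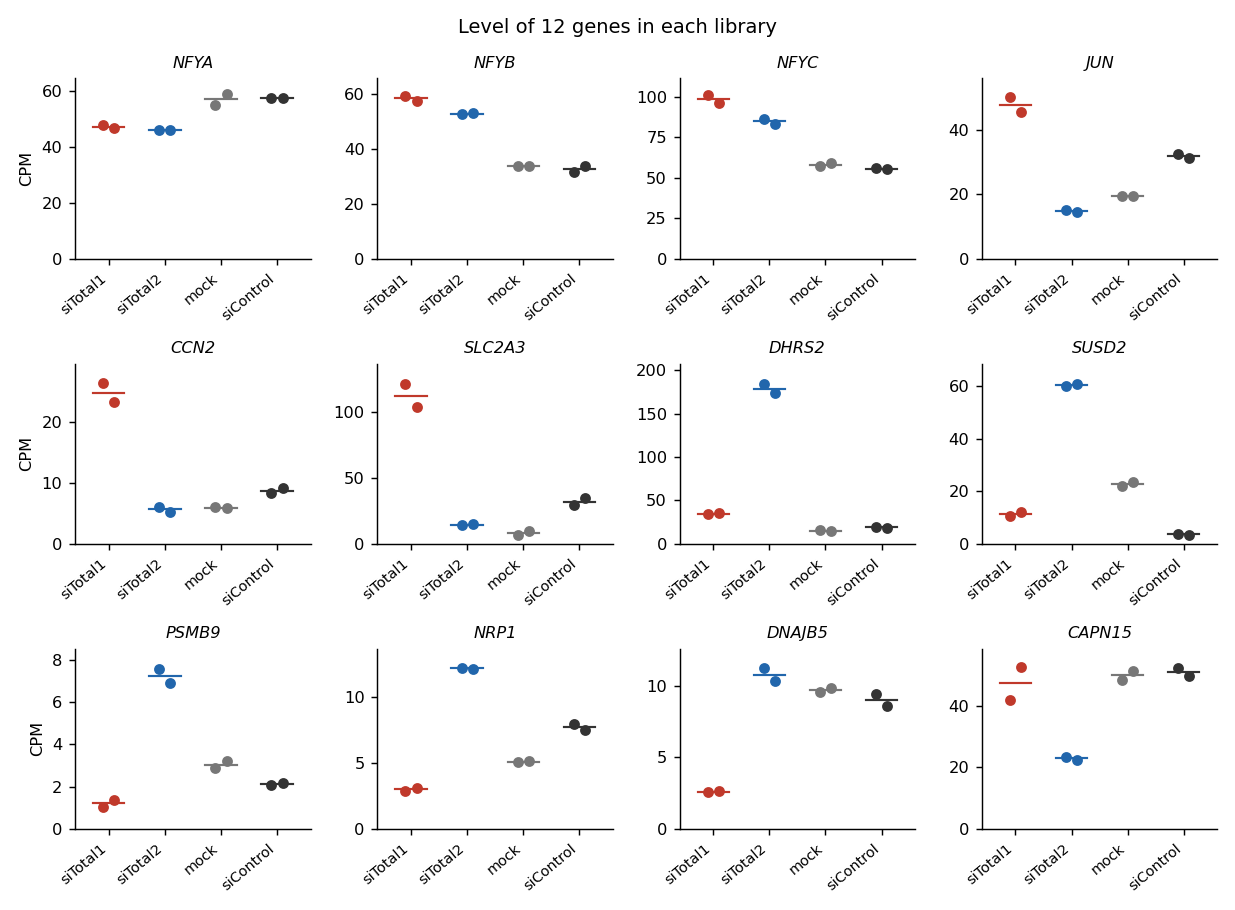
Level (CPM, TMM-scaled, y axis from 0) of 12 genes in each library of siTotal1, siTotal2, mock and siControl; points are libraries and bars are means of 2. NFYA lay at 46.0 to 47.9 CPM in all 4 siTotal libraries. The 9 genes from JUN to CAPN15 had larger log2 differences between siTotal1 and siTotal2 than NFYA, NFYB and NFYC.

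Many other genes were called different between the siRNAs. Of the 17730 genes, 7775 (43.9%) differed between siTotal1 and siTotal2 at an adjusted p under 0.05, 4124 (23.3%) higher and 3651 (20.6%) lower in siTotal1. Most of these differences were small, with a median size of 0.35 on the log2 scale among the called genes. A difference of at least 2-fold was called for 867 genes (4.89%), of which 240 (1.35%) were higher and 627 (3.54%) lower in siTotal1. Of the 12417 genes with an average log2 CPM above 1, 6807 differed at an adjusted p under 0.05, a larger share than over all 17730 genes. At 2-fold or more, 78 of the 12417 genes were higher and 165 lower. In the 12417 genes the 5th and 95th percentiles of the difference were -0.64 and 0.52, and the median over all 17730 genes was 0.005.

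The distance between the siRNAs was of the same order as the distances from an siTotal group to a control. The root mean square of the fitted log2 difference over all tested genes was 0.569 between siTotal1 and siTotal2. It was 0.542 between siTotal1 and siControl and 0.511 between siTotal1 and mock. For siTotal2 it was 0.607 against siControl but 0.398 against mock. The controls themselves differed by 0.519. With genes above a log2 CPM of 1 only, a limit added after seeing the data, the value was 0.373 between the siTotal groups, 0.378 between siTotal1 and siControl, 0.343 between siTotal1 and mock and 0.413 between siTotal2 and siControl. That between siTotal2 and mock was 0.244, in both gene sets the smallest of the 6 pairs.

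**Figure D2:**
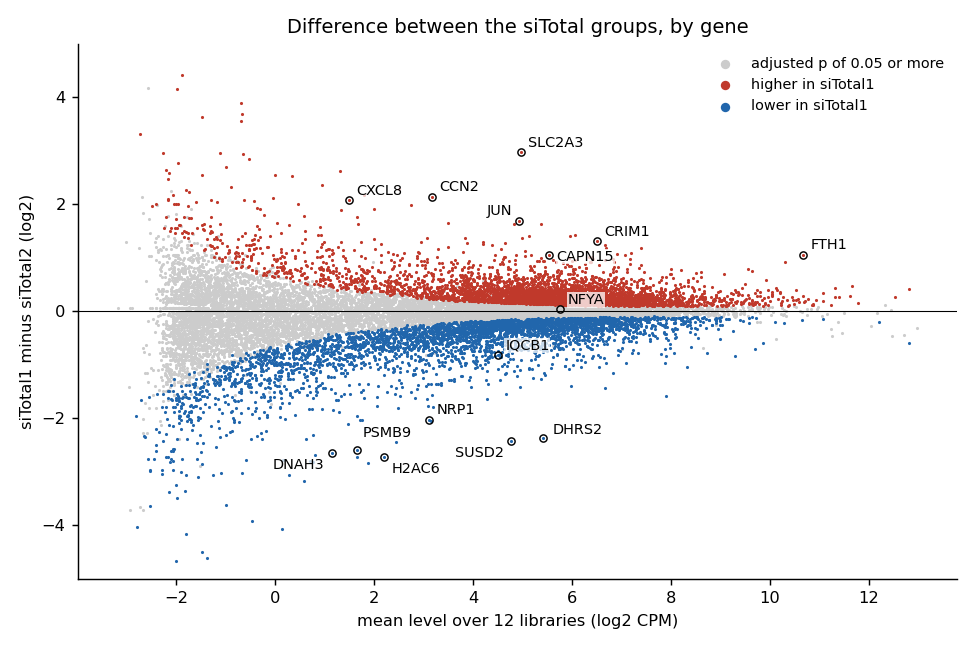
Each point is a gene, by its mean log2 CPM over 12 libraries (x axis) and its log2 difference, siTotal1 minus siTotal2 (y axis); red and blue points had an adjusted p under 0.05, and 14 genes lie beyond the axis limit of 5. SLC2A3 at 2.98 and DHRS2 at -2.36 stood far from NFYA at 0.04.

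Each called gene was then placed by which siTotal group differed from both mock and siControl in 1 direction. Single contrasts called 7698 genes (43.4%) in siTotal1 against siControl, 7250 (40.9%) in siTotal1 against mock, 8001 (45.1%) in siTotal2 against siControl and 4736 (26.7%) in siTotal2 against mock. These contrasts share libraries, so the counts are a description. In siTotal1, 3935 genes (22.2%) were called against both controls, 2240 (12.6%) higher and 1695 (9.56%) lower. In siTotal2, 2793 genes (15.8%) were, 1482 (8.36%) higher and 1311 (7.39%) lower. Of the 7775 genes that differed between the siRNAs, 2400 (30.9%) departed from the controls in siTotal1 only and 1465 (18.8%) in siTotal2 only. A further 305 (3.9%) departed in both but in opposite directions, and 265 (3.4%) in both in the same direction but by different amounts. The largest class, 3340 genes (43.0%), was called against both controls in neither group. The opposite class fell to 202 genes without mock replicate 1, and the same-direction class fell to 171, 165 and 157 genes without mock replicate 1, siTotal2 replicate 1 and siTotal2 replicate 2.

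The classes differed in direction and size. Genes departing in siTotal1 only were more often higher (1383) than lower (1017), and those departing in siTotal2 only were higher in siTotal2 for 768 and lower for 697. The opposite class had the largest median difference, 0.68 on the log2 scale, against 0.38 in either single class. At 2-fold or more, 169 of the 627 genes lower in siTotal1 were raised in siTotal2 only, 130 were lowered in siTotal1 only and 56 moved in opposite directions. For the 240 genes higher in siTotal1 by that size, 93 were raised in siTotal1 only and 21 were lowered in siTotal2 only. A further 262 lower and 105 higher genes were called against both controls in neither group.

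The controls also differed from each other. Mock against siControl, which shares no library with the siTotal comparison, called 7065 of the 17730 genes (39.8%). Of the 4046 genes called in both comparisons, siTotal2 lay on the side of mock for 2792 (69.0%) and siTotal1 did for 1254. At 2-fold or more between the siRNAs the count was 251 of 309 (81.2%), and in the class called in neither group 1541 of 2082 (74.0%). MGLL, which encodes monoacylglycerol lipase, shows the pattern. MGLL had 45.7 and 39.3 CPM in siTotal1, against 16.2 and 15.8 CPM in siTotal2, and 17.8 and 18.2 CPM in mock and 46.4 and 43.4 CPM in siControl. Its siTotal1 libraries stood at the siControl level and its siTotal2 libraries at the mock level.

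**Figure D3:**
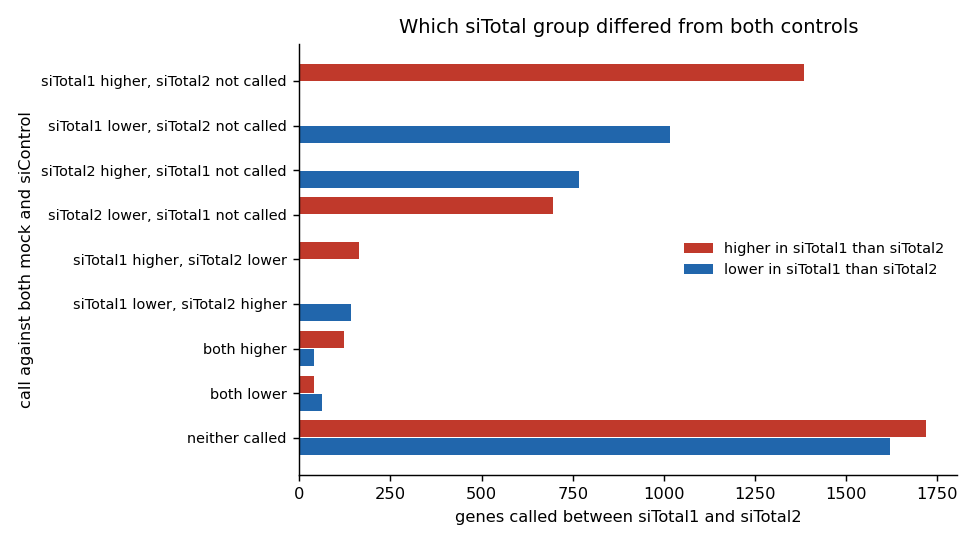
Number of genes called between siTotal1 and siTotal2 (x axis), by their call against both mock and siControl (rows); red bars count genes higher and blue bars genes lower in siTotal1 than in siTotal2. Departure in siTotal1 only (1383 higher, 1017 lower) was more frequent than departure in siTotal2 only (697 and 768).

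The genes most raised in siTotal1 relative to siTotal2 included SLC2A3, P3H2 and CCN2. SLC2A3 (chr12:7919230-7936275, GRCh38), a neuronal-type glucose transporter, was the highest of the genes with an average log2 CPM above 1. SLC2A3 had 121 and 104 CPM in siTotal1, against 13.9 and 14.7 CPM in siTotal2, 7.89-fold higher, a difference of 2.98 (log2, SE 0.16, adjusted p = 3.3e-06). The controls held 6.41 and 9.34 CPM in mock and 29.2 and 35.0 CPM in siControl, so siTotal1 stood above every other library and siTotal2 between the controls. CCN2 (chr6:131948176-131951373), a secreted matricellular protein, had 26.4 and 23.4 CPM in siTotal1, against 6.12 and 5.18 CPM in siTotal2, a difference of 2.14 (log2, SE 0.10, adjusted p = 4.6e-19). Its siTotal2 libraries overlapped mock, at 6.11 and 5.80 CPM in mock and 8.28 and 9.21 CPM in siControl. P3H2, a collagen prolyl hydroxylase, had 17.0 and 14.7 CPM in siTotal1, against 3.46 and 3.01 CPM in siTotal2, a difference of 2.29 (adjusted p = 1.5e-17).

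Several leading genes were high in siTotal1 and also in siControl. IL31RA, a cytokine receptor, had 5.28 and 4.82 CPM in siTotal1, against 0.942 and 0.689 CPM in siTotal2, and 0.654 and 0.794 CPM in mock and 5.39 and 5.71 CPM in siControl. It was low in siTotal2 and mock and high in the other 2 groups. MYPN, a sarcomere protein gene, was highest in siControl, with 2.03 and 1.77 CPM in siTotal1, against 0.554 and 0.562 CPM in siTotal2, and 0.833 and 1.23 CPM in mock and 7.75 and 7.49 CPM in siControl. Others of the 15 genes with the largest rise were ARHGDIB (2.18), CXCL8 (2.08), HKDC1 (1.91), TENM3 (1.89), JUN (1.69), KRT80 (1.66), the pseudogene ANAPC1P4 (1.64) and THBS1 (1.63), all log2 differences with an adjusted p under 0.05.

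JUN, the AP-1 transcription factor subunit, moved in opposite directions. JUN (chr1:58780788-58784327) had 50.2 and 45.8 CPM in siTotal1, against 15.1 and 14.6 CPM in siTotal2, and 19.5 and 19.5 CPM in mock and 32.6 and 31.3 CPM in siControl. Its difference between the siRNAs was 1.69 (log2, SE 0.06, adjusted p = 1.3e-21), with siTotal1 above and siTotal2 below all 4 control libraries. CPA4, a carboxypeptidase gene, had 87.9 and 80.9 CPM in siTotal1, against 31.9 and 30.5 CPM in siTotal2, with 41.3 and 37.1 CPM in mock and 73.0 and 79.8 CPM in siControl. HKDC1, a hexokinase-domain gene, had 7.11 and 7.17 CPM in siTotal1, against 1.63 and 2.14 CPM in siTotal2, with 2.88 and 2.82 CPM in mock and 3.94 and 3.10 CPM in siControl. FRK, a SRC-family kinase gene (1.28), and the long non-coding RNA LINC00460 (1.35) were likewise higher than both controls in siTotal1 and lower than both in siTotal2.

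The genes most lowered in siTotal1 relative to siTotal2 were led by genes that siTotal2 raised. DHRS2 (chr14:23630115-23645639), a short-chain dehydrogenase gene, had the smallest adjusted p of those named. DHRS2 had 34.1 and 35.4 CPM in siTotal1, against 184 and 174 CPM in siTotal2, and 15.6 and 14.1 CPM in mock and 19.8 and 18.6 CPM in siControl. The difference was -2.36 (log2, SE 0.05, adjusted p = 2.7e-28), with siTotal2 5.15-fold above siTotal1 and both groups above both controls. SUSD2 (chr22:24181259-24189110), a sushi-domain membrane protein gene, had 10.6 and 11.9 CPM in siTotal1, against 59.9 and 60.6 CPM in siTotal2, a difference of -2.42 (log2, SE 0.08, adjusted p = 7.6e-23). The controls were far apart at 22.1 and 23.5 CPM in mock and 3.71 and 3.34 CPM in siControl, and siTotal1 lay between them. DNAH3, an axonemal dynein heavy chain gene, had 1.50 and 1.54 CPM in siTotal1, against 9.09 and 9.90 CPM in siTotal2, with 0.694 and 0.530 CPM in mock and 0.578 and 0.620 CPM in siControl. SPTSSB, a subunit of serine palmitoyltransferase, had 1.53 and 1.12 CPM in siTotal1, against 8.70 and 8.81 CPM in siTotal2, with 1.43 and 1.56 CPM in mock and 2.68 and 2.94 CPM in siControl. Both were several times higher in siTotal2 than in any other of these groups.

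In other leading falls siTotal1 itself stood below the controls. DNAJB5, a chaperone gene, had 2.58 and 2.63 CPM in siTotal1, against 11.2 and 10.4 CPM in siTotal2, and 9.56 and 9.85 CPM in mock and 9.43 and 8.62 CPM in siControl. siTotal2 was near the controls there, and the difference was -2.05 (log2, SE 0.12, adjusted p = 2.4e-16). PAQR8, a membrane progestin receptor gene, had 1.94 and 2.21 CPM in siTotal1, against 11.3 and 11.3 CPM in siTotal2, and 6.03 and 6.33 CPM in mock and 3.34 and 3.31 CPM in siControl. NRP1, the semaphorin and VEGF co-receptor neuropilin 1, had 2.89 and 3.08 CPM in siTotal1, against 12.2 and 12.1 CPM in siTotal2, and 5.04 and 5.15 CPM in mock and 7.94 and 7.46 CPM in siControl. For these 2 genes siTotal1 stood below and siTotal2 above all 4 control libraries. The others of the 15 largest falls were the antisense RNA MSRB3-AS1 (-2.83), H2AC6 (-2.72), PSMB9 (-2.59), H2AC25 (-2.20), AC104534.1 (-2.11), BTC (-2.03), SLC4A8 (-2.03) and ADSS1 (-1.97), log2 differences called at an adjusted p under 0.05. MSRB3-AS1 is an antisense gene and its reads may not be told apart from those of a partner on the other strand.

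The seed of each siRNA was compared with annotated 3′ untranslated regions. The word complementary to bases 2 to 8 of the antisense strand was AAGGGAA for siRNA 1 and GACGATT for siRNA 2, searched on the transcript strand only, in the longest annotated 3′ untranslated region of each gene. Of 11274 genes with such a region of at least 50 bases and an average log2 CPM above 1, 2326 (20.6%) held the first word and 177 (1.57%) the second. Over all 11274 genes, 32.1% were higher and 24.3% lower in siTotal1 than in siTotal2. These are counts over genes and no test was made of them.

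Genes with the siRNA 1 word were more often lower in siTotal1. Of the 2326, 35.0% were lower and 26.0% higher, against 21.5% lower and 33.7% higher of the 8948 genes without the word. The share that was lower was 33.6% with 1 site, 39.4% with 2 and 40.5% with 3 or more, and 39.6% of the 1017 genes with an 8-base match. Length of the region moved with the word, since genes holding it had a median of 3010 bases and those without 1144. The genes were therefore split by region length into 3 sets of similar size. With the shortest regions, 54.1% of the 172 genes with the word were lower and 9.30% higher in siTotal1. Of the 3590 without it, 22.5% were lower and 28.8% higher. In mock against siControl, 22.7% of those 172 genes were lower and 25.0% higher, against 22.01% and 28.2% of the 3590. Over all 2326 genes with the word, 30.8% were lower and 24.85% higher in mock against siControl. Of the 8948 without it, 26.3% were lower and 26.1% higher. With regions of middle length, 31.6% with the word and 28.8% without it were lower in mock against siControl. In the middle set, 38.6% of 624 genes with the word were lower and 20.4% higher in siTotal1, against 20.3% and 35.9% without it. The set with the longest regions held 1530 of the 2326 genes with the word. Of these 1530, 31.3% were lower and 30.1% higher in siTotal1, against 21.6% and 38.6% without it.

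Genes with the siRNA 2 word were more often higher in siTotal1. Of the 177, 53.1% were higher and 18.6% lower in siTotal1 than in siTotal2, against 31.8% and 24.3% of the 11097 genes without it. The median log2 difference was 0.16 with the word and 0.03 without. Of the 30 genes with an 8-base match, a smaller share was higher (46.7%) and a larger share lower (23.3%). In mock against siControl, in which neither siRNA was used, 22.03% of the 177 genes were higher and 33.3% lower (median -0.06), against 25.9% and 27.2% of those without the word. Among the 21 genes with the word and the shortest regions, 14 were higher and 2 lower in siTotal1 than in siTotal2. The counts were 17 and 6 of 38 in the middle set, and 63 and 25 of 118 with the longest regions. The median of the 177 genes was -0.10 in siTotal2 against mock and -0.15 in siTotal2 against siControl, and 0.06 and -0.01 in siTotal1 against the same controls.

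The bias was strongest at the seed position of each antisense strand. Sliding a 7-base window along the siRNA 1 antisense strand, a scan added after seeing the data, gave 32.8%, 35.0% and 29.1% lower genes for windows starting at bases 1, 2 and 3, and 24.0% to 27.3% for windows starting at base 4 or later. For the siRNA 2 antisense strand the share of higher genes was 42.2%, 53.1%, 42.8% and 37.1% for windows starting at bases 1 to 4, and 33.5% to 35.0% after that. The sense strand of siRNA 2 had a smaller bias at its own bases 2 to 8, where 40.8% of 1494 genes with the word CTTCACC were higher in siTotal1, against 30.8% without it. For the sense strand of siRNA 1 (word CCTCTAG) 33.8% of 1058 genes were higher and 24.9% lower, close to the 32.1% and 24.3% of all genes.

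**Figure D4:**
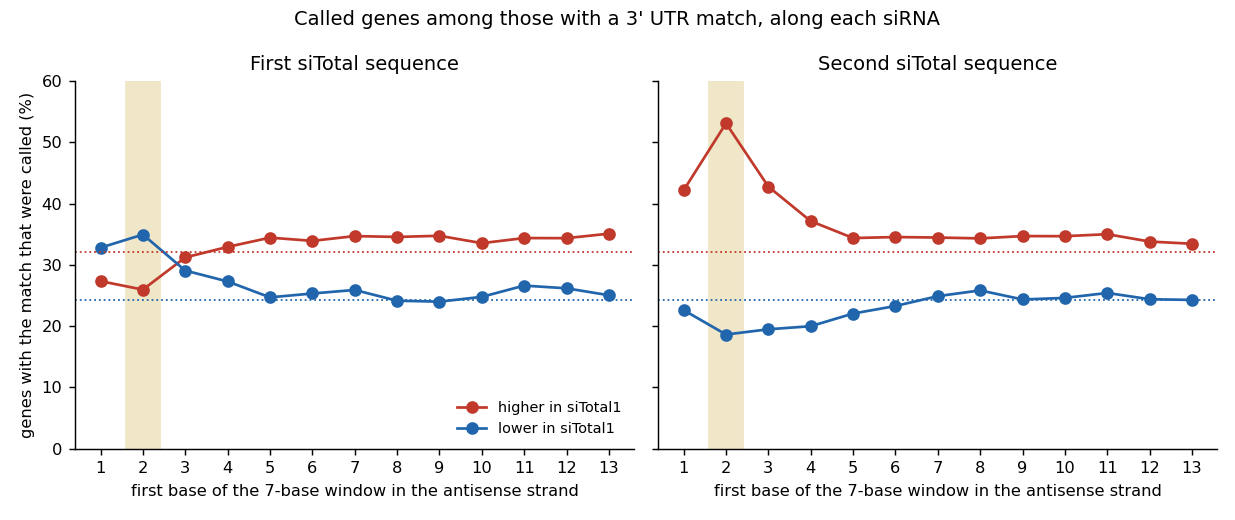
Percentage of genes called higher (red) or lower (blue) in siTotal1 than in siTotal2 (y axis) among genes whose 3′ untranslated region matches the 7-base window of the antisense strand that starts at the base on the x axis; dotted lines are all 11274 genes and the shaded window starts at base 2. Left, siRNA 1, with a peak of 35.0% lower; right, siRNA 2, with a peak of 53.1% higher.

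The word was found in some of the leading genes. Of the 15 largest falls, 12 had a tested region and 6 of them held the siRNA 1 word, while 0 held the siRNA 2 word. Over all genes with such a region the shares were 20.6% and 1.57%, so 0 of 12 for the siRNA 2 word was near its share. NRP1, PAQR8, DNAJB5 and SLC4A8 had 2 sites each and DHRS2 and BTC had 1. DHRS2 was above both controls in siTotal1 also, so its place among the falls does not mean that siTotal1 lowered it. Of the 15 largest rises, 14 had a region, 2 held the siRNA 1 word and 1 held the siRNA 2 word. Some other genes with the siRNA 1 word were lower than both controls in siTotal1 and not in siTotal2. BCL2L2, an anti-apoptotic BCL2 relative with 2 sites, had 18.7 and 21.5 CPM in siTotal1, against 41.6 and 39.6 CPM in siTotal2, with 39.6 and 39.6 CPM in mock and 60.03 and 65.6 CPM in siControl. LAMP1, the main lysosomal membrane glycoprotein, with 1 site, had 132 and 136 CPM in siTotal1, against 240.0 and 236 CPM in siTotal2, with 232 and 247 CPM in mock and 202 and 207 CPM in siControl. UNG, which removes uracil from DNA, with 1 site, had 77.7 and 72.8 CPM in siTotal1, against 125 and 123 CPM in siTotal2, with 152 and 155 CPM in mock and 116 and 113 CPM in siControl. TXNRD1, with 2 sites, was higher in siTotal1 (0.51), so a match did not go with a lower level in every gene.

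Longer partial matches were looked for in all annotated transcripts of the tested genes other than NFYA. For siRNA 1, 8 genes shared 14 or more bases, and not all of them are reported here. The 19-base windows below are transcript sequences at long matches to protein-coding transcripts, with the bases shared with the sense strand in capitals, and they are shown because 3 of the genes were lower under the siRNA that matches them.
MGLL, siRNA 1: tCTAGAGGCAGAAGGGAAg
IQCB1, siRNA 1: gaagGAGGCAGAAGGGAAA
SOCS6, siRNA 1: ttggGAGGCAGAAGGGAAg
CAPN15, siRNA 2: acaTGAAGGTGGACGATTc
CAPN15 (chr16:527717-554636, GRCh38), a calpain-family protease gene, shares 15 bases of its coding sequence with siRNA 2. CAPN15 had 41.9 and 52.6 CPM in siTotal1, against 23.3 and 22.4 CPM in siTotal2, and 48.4 and 51.2 CPM in mock and 52.1 and 49.5 CPM in siControl. The difference was 1.05 (log2, SE 0.08, adjusted p = 5.4e-09), and siTotal2 stood below every other library of the 4 groups.

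For siRNA 1 the coding matches and the untranslated match differed. IQCB1 (chr3:121769763-121835079), a ciliary protein gene with 15 shared coding bases, had 12.7 and 14.1 CPM in siTotal1, against 23.0 and 23.9 CPM in siTotal2, and 23.9 and 23.2 CPM in mock and 27.5 and 29.2 CPM in siControl. SOCS6, a cytokine signalling suppressor with 14 shared coding bases, had 48.9 and 50.3 CPM in siTotal1, against 66.9 and 69.8 CPM in siTotal2, and 68.2 and 74.3 CPM in mock and 69.3 and 76.4 CPM in siControl. Both were lower in siTotal1 than in all other libraries of the 4 groups. MGLL, with 17 shared bases in the 3′ untranslated region of transcript MGLL-215, was higher in siTotal1 by 1.41 (adjusted p = 1.0e-18). USB1, with 14 shared bases in a retained-intron transcript, differed by 0.15 (adjusted p = 0.004), and PARP3, SLC29A3 and SCART1, with 14 shared bases with siRNA 2, were not called. FAM13A-AS1, with 15 shared bases and under 1 CPM in all 4 siTotal libraries, was not called either.

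Among the gene lists, the targets of YAP, the co-activator of TEAD factors that the Hippo pathway restrains, stood most to the higher side. Of 19 tested members, 18 were higher and 0 lower in siTotal1, with a median log2 difference of 0.74, against 23.3% higher, 20.6% lower and a median of 0.005 over all genes. These values over all genes are the background for every list below. Within the YAP list ANKRD1 was at 2.96 with under 1 CPM in every library of the 4 groups, and CCN2 at 2.14. CRIM1, a membrane protein that binds growth factors, had 166 and 154 CPM in siTotal1, against 64.8 and 63.9 CPM in siTotal2, and 60.4 and 65.3 CPM in mock and 97.1 and 100.3 CPM in siControl. LATS2, a Hippo kinase that YAP itself induces, had 52.9 and 51.2 CPM in siTotal1, against 19.7 and 20.7 CPM in siTotal2, and 21.8 and 22.8 CPM in mock and 36.2 and 36.1 CPM in siControl. For both genes siTotal2 was near the mock level and siTotal1 above all other libraries. CCN1 was different, with 116 and 97.8 CPM in siTotal1, against 40.3 and 40.3 CPM in siTotal2 but 47.3 and 43.0 CPM in mock and 102 and 108 CPM in siControl, so that siTotal1 was level with siControl. The list's median was 1.09 in siTotal1 against mock, 0.42 in siTotal1 against siControl, -0.01 in siTotal2 against mock and -0.49 in siTotal2 against siControl, and mock itself lay 0.51 below siControl.

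Inflammatory genes under NF-kB were also higher in siTotal1, in 8 of 17 tested, with 0 lower and a median of 0.33. CXCL8, a neutrophil chemokine, had 11.2 and 9.83 CPM in siTotal1, against 2.63 and 2.35 CPM in siTotal2, and 0.813 and 0.722 CPM in mock and 1.02 and 1.19 CPM in siControl, so it was raised over both controls by both siRNAs and by siTotal1 more. BIRC3, an apoptosis inhibitor, had 17.4 and 17.9 CPM in siTotal1, against 7.09 and 6.56 CPM in siTotal2, with 6.25 and 5.63 CPM in mock and 7.99 and 8.84 CPM in siControl. RELB, an NF-kB subunit, had 17.2 and 16.8 CPM in siTotal1, against 10.2 and 9.45 CPM in siTotal2, with 10.8 and 10.7 CPM in mock and 19.8 and 18.8 CPM in siControl, and here siTotal1 lay between the controls and siTotal2 near mock.

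Interferon-stimulated and antigen presentation genes went the other way. Of 31 interferon response genes tested, 14 were lower in siTotal1 and 0 higher (median -0.34), and of 15 MHC class I presentation genes 12 were lower and 0 higher (median -0.42). PSMB9 (chr6:32844136-32859585), an immunoproteasome subunit, had 1.03 and 1.37 CPM in siTotal1, against 7.56 and 6.92 CPM in siTotal2, and 2.88 and 3.20 CPM in mock and 2.08 and 2.18 CPM in siControl. The difference was -2.59 (log2, SE 0.17, adjusted p = 1.0e-14), with siTotal1 below and siTotal2 above all 4 control libraries. IFI6, an interferon-induced mitochondrial protein, had 4.97 and 5.60 CPM in siTotal1, against 12.2 and 10.8 CPM in siTotal2, with 6.21 and 6.38 CPM in mock and 3.36 and 3.18 CPM in siControl. HERC6, a ubiquitin ligase gene, had 8.66 and 7.87 CPM in siTotal1, against 15.5 and 14.6 CPM in siTotal2, with 10.7 and 10.4 CPM in mock and 15.9 and 16.5 CPM in siControl. In IFI6 siTotal2 stood above all control libraries, whereas in HERC6 siTotal1 stood below them. Of the MHC list, 9 members were higher than both controls in siTotal2 and 4 lower than both in siTotal1. Heavy chain genes were called lower, HLA-F at -0.65, HLA-C at -0.42, HLA-B at -0.38 and HLA-E at -0.29, as was B2M at -0.20.

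Replication-dependent histone genes, whose transcripts normally end in a stem-loop without a poly(A) tail, were lower in siTotal1 in 9 of 10 tested (0 higher), with a median of -1.42. H2AC6 had 1.86 and 1.79 CPM in siTotal1, against 11.1 and 13.04 CPM in siTotal2, and 2.50 and 2.43 CPM in mock and 3.15 and 4.61 CPM in siControl. H2BC21 had 0.361 and 0.336 CPM in siTotal1, against 3.13 and 3.24 CPM in siTotal2, with 0.873 and 0.987 CPM in mock and 0.946 and 1.05 CPM in siControl. In both, siTotal2 was above all 4 control libraries. Of the 10, 7 were higher than both controls in siTotal2, whereas 1 was higher and 1 lower in siTotal1. Histone genes have near-identical copies, so the assignment of reads among them is uncertain, and in polyadenylated RNA these values count only transcripts with a tail.

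Ribosomal protein genes were higher in siTotal1 in 34 of 35, with 0 lower, by small amounts (median 0.19, range 0.06 to 0.40). RPS6 had 1868 and 1678 CPM in siTotal1, against 1370.2 and 1320.3 CPM in siTotal2, and 1495 and 1535 CPM in mock and 1438 and 1503 CPM in siControl. By DESeq2, which scales libraries in another way, 34 were likewise higher and 0 lower. Mitochondrially encoded transcripts had a median of -0.31, but only 1 was called lower (MT-ND4, -0.59) and 1 higher, the small ribosomal RNA MT-RNR1. MT-RNR1 had 2315 and 2226 CPM in siTotal1, against 1168 and 1230.1 CPM in siTotal2, and 588 and 539 CPM in mock and 519.6 and 696 CPM in siControl. DESeq2 called 6 lower and 1 higher. Mitochondrial transcripts made up 3.93% and 4.94% of reads in siTotal1, against 5.75% and 5.54% in siTotal2. Nuclear genes of the respiratory chain were lower in 12 of 30 and higher in 3, led by SDHD, a subunit of succinate dehydrogenase with 1 siRNA 1 site, at 55.5 and 55.5 CPM in siTotal1, against 93.0 and 88.3 CPM in siTotal2.

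**Figure D5:**
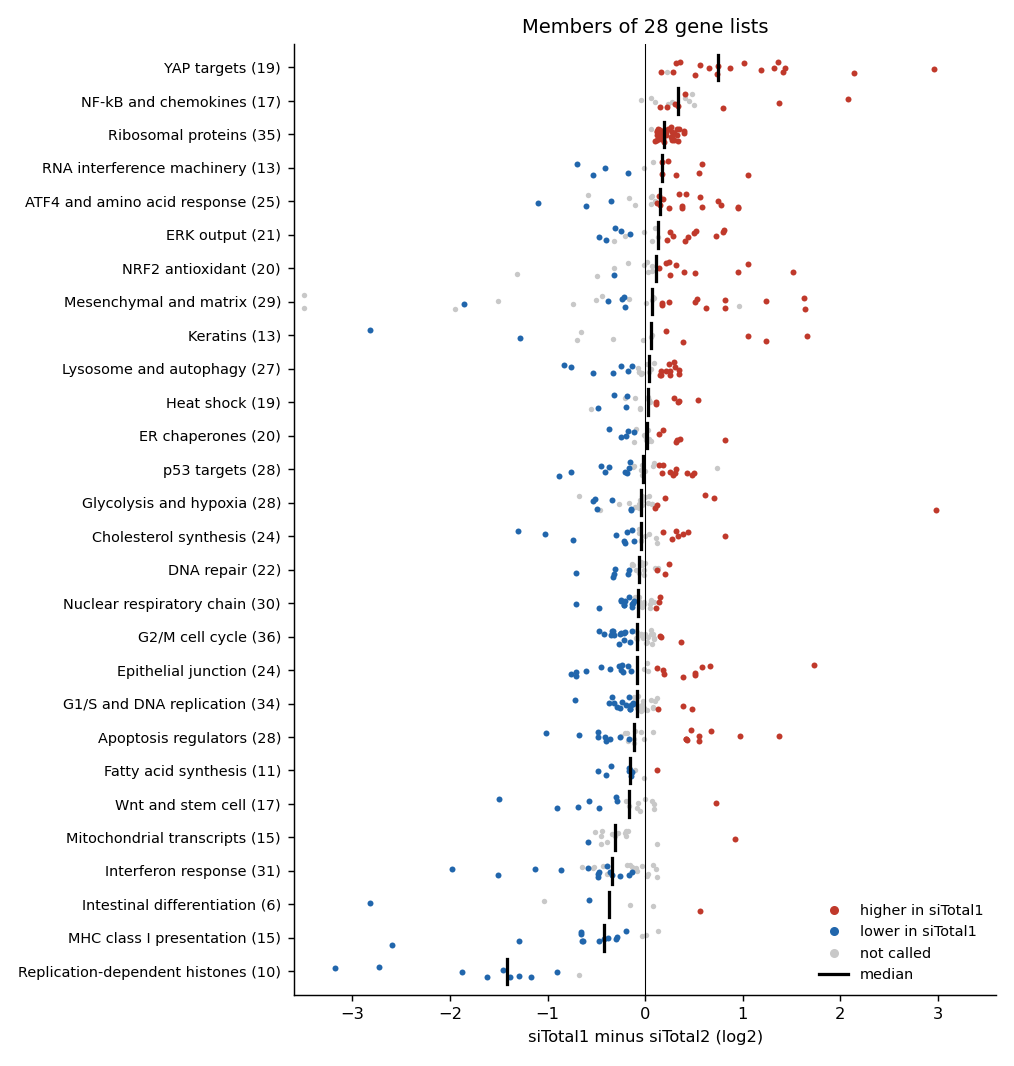
Log2 difference, siTotal1 minus siTotal2 (x axis), for each tested member of 28 gene lists (rows, number tested in brackets); red and blue points were called higher or lower in siTotal1, grey points were not called, black bars are medians, and 2 members beyond 3.5 are drawn at the edge. YAP targets lie highest (median 0.74) and replication-dependent histones lowest (median -1.42).

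Proliferation genes were called about as often as all genes (43.9%, with 20.6% lower and 23.3% higher). Their share was below that of genes with an average log2 CPM above 1, of which 6807 of 12417 were called. More of the proliferation genes called were lower than higher in siTotal1. Of 36 G2/M genes 14 were lower in siTotal1 and 3 higher (median -0.08). Of 34 G1/S and replication genes 14 were lower and 3 higher (median -0.09). Of 22 DNA repair genes 6 were lower, 3 were higher and 13 were not called (median -0.06). CENPA, the centromeric histone H3 variant, had 16.6 and 16.8 CPM in siTotal1, against 24.7 and 21.8 CPM in siTotal2, and 25.7 and 27.8 CPM in mock and 24.4 and 25.4 CPM in siControl. RAD54L, a recombination translocase gene, had 26.4 and 26.1 CPM in siTotal1, against 43.0 and 42.6 CPM in siTotal2, and 43.1 and 39.3 CPM in mock and 36.0 and 36.0 CPM in siControl. Both were lower than both controls in siTotal1 only. Not all members followed, since FOXM1, a driver of G2/M transcription, was higher in siTotal1 (0.36) and so was PCNA, the replication clamp (0.48).

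Growth signalling genes were called in both directions. Of 21 genes of ERK output, 10 were higher in siTotal1, 5 were lower and 6 were not called (median 0.13), against 23.3% higher and 20.6% lower of all genes. MYC, the growth-promoting transcription factor, had 431 and 406 CPM in siTotal1, against 253 and 255 CPM in siTotal2, and 341 and 350.4 CPM in mock and 332 and 342 CPM in siControl. CCND1, the G1 cyclin D1, had 881 and 798 CPM in siTotal1, against 489 and 478 CPM in siTotal2, and 629.7 and 650.0 CPM in mock and 725 and 736 CPM in siControl. Both were above both controls in siTotal1 and below both in siTotal2. DUSP5, an ERK phosphatase, had 191 and 171 CPM in siTotal1, against 104 and 103 CPM in siTotal2 but 109 and 109 CPM in mock and 276 and 276 CPM in siControl, so siControl was highest. Of 25 genes of the ATF4 amino acid response 15 were higher and 3 lower (median 0.15), among them the cystine transporter SLC7A11 (0.95) and the large neutral amino acid transporter SLC7A5 (0.75). SLC7A5 had 1076 and 1002 CPM in siTotal1, against 635 and 599 CPM in siTotal2, and 870.3 and 846 CPM in mock and 1029 and 997 CPM in siControl, with siTotal2 lowest. Of this list, 13 members were lower than both controls in siTotal2 and 8 in siTotal1.

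Of 20 NRF2 antioxidant genes 10 were higher and 1 lower in siTotal1. FTH1, the ferritin heavy chain, had 1251 and 1295 CPM in siTotal1, against 651 and 571 CPM in siTotal2, and 1396 and 1543 CPM in mock and 1547 and 1530.5 CPM in siControl, a difference of 1.06 (log2, SE 0.05, adjusted p = 2.7e-15). Both groups were lower than both controls, siTotal2 by more. FTH1 has processed pseudogene copies that can take some of its reads, and FTH1P11 was also higher in siTotal1 (1.15). Heat shock genes (6 higher and 4 lower of 19) and endoplasmic reticulum chaperones (6 and 5 of 20) were divided, against 23.3% higher and 20.6% lower of all genes. The chaperone HSPA5 was at 0.31 and its cofactor DNAJB9 at 0.82.

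Lipid synthesis genes were also called in both directions. Of 11 fatty acid synthesis genes 8 were lower in siTotal1 and 1 higher, all by less than 0.5 on the log2 scale, with the desaturases FADS2 at -0.48 and FADS1 at -0.40. Of 24 cholesterol synthesis genes 9 were lower and 7 higher, and both lists had a median just below 0 (-0.16 for fatty acid and -0.04 for cholesterol synthesis). MVK, the mevalonate kinase, had 15.3 and 15.6 CPM in siTotal1, against 32.9 and 29.97 CPM in siTotal2, and 28.6 and 27.4 CPM in mock and 36.3 and 34.9 CPM in siControl. SC5D, a sterol desaturase with 1 siRNA 2 site, had 45.8 and 43.1 CPM in siTotal1, against 24.9 and 25.3 CPM in siTotal2, and 38.8 and 42.1 CPM in mock and 49.6 and 53.1 CPM in siControl. In MVK siTotal1 stood below all other libraries and in SC5D siTotal2 did.

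Epithelial genes were called in both directions. Of 24 junction genes 12 were lower and 9 higher in siTotal1, against 20.6% lower and 23.3% higher of all genes. CDH1, the adherens junction cadherin, had 55.9 and 57.3 CPM in siTotal1, against 90.1 and 94.96 CPM in siTotal2, and 76.7 and 84.0 CPM in mock and 94.8 and 99.7 CPM in siControl. EPCAM, an epithelial adhesion molecule with 1 siRNA 1 site, had 165 and 164 CPM in siTotal1, against 259 and 242 CPM in siTotal2, and 243 and 261 CPM in mock and 279 and 278 CPM in siControl. Both were lower in siTotal1 than in every other library of the 4 groups. Keratins were higher in 5 of 13 and lower in 2, with KRT80 at 1.66, KRT7 at 1.24, KRT15 at 1.05 and KRT23 at -1.29. All 6 epithelial markers were abundant in all libraries, with summed levels of 3820 and 3580 CPM in siTotal1, 3474 and 3325 CPM in siTotal2, 3497 and 3695 CPM in mock and 3419 and 3488 CPM in siControl.

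Of 29 mesenchymal and matrix genes 11 were higher and 5 lower in siTotal1. THBS1, a matricellular glycoprotein with 2 siRNA 1 sites and 1 siRNA 2 site, had 63.5 and 53.8 CPM in siTotal1, against 18.5 and 19.3 CPM in siTotal2, with 21.5 and 18.9 CPM in mock and 26.1 and 28.2 CPM in siControl. The laminin chain gene LAMB3 had 143 and 133 CPM in siTotal1, against 78.0 and 78.0 CPM in siTotal2, and 46.9 and 50.1 CPM in mock and 141 and 140.5 CPM in siControl, so that siTotal1 was level with siControl. Fibroblast transcripts were unevenly spread over the libraries. DCN, the proteoglycan decorin, had 0 and 1 reads in siTotal1, against 92 and 51 in siTotal2, 106 and 0 in mock and 0 and 0 in siControl. COL1A2 had 0 and 0 reads in siTotal1, against 43 and 16 in siTotal2, 158 and 0 in mock and 3 and 0 in siControl. The 9 fibroblast markers summed to 27.3 and 31.4 CPM in siTotal1, against 43.0 and 44.7 CPM in siTotal2, 46.2 and 26.4 CPM in mock and 35.4 and 34.0 CPM in siControl. Most of each sum was COL1A1, which was abundant in every library, also in those with 0 DCN reads. Without COL1A1 the other 8 markers summed to 16 and 10 reads in siTotal1, against 220 and 118 in siTotal2, 464 and 23 in mock and 8 and 19 in siControl. Of the 5 markers tested, edgeR called 0 and DESeq2 called 2 lower in siTotal1. The part of these reads in the other differences was not tested. In the mock libraries with and without DCN reads PSMB9 stood at 2.88 and 3.20 CPM and H2AC6 at 2.50 and 2.43 CPM. This is 1 library of each kind and 2 genes, and the other genes were not compared in this way. In RNA from whole cultures, fewer cells of a kind and less RNA per cell cannot be told apart.

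Calls among genes of the RNA interference machinery went both ways. Of 13 genes 7 were higher and 4 lower in siTotal1, against 23.3% higher and 20.6% lower of all genes. TNRC6C, a scaffold protein of the silencing complex with 1 siRNA 2 site, had 48.5 and 50.1 CPM in siTotal1, against 23.0 and 24.4 CPM in siTotal2, and 33.1 and 36.0 CPM in mock and 31.8 and 31.8 CPM in siControl. TNRC6B, its paralogue with 2 siRNA 1 sites, had 53.2 and 62.1 CPM in siTotal1, against 89.1 and 97.7 CPM in siTotal2, and 76.8 and 83.2 CPM in mock and 51.6 and 51.7 CPM in siControl. AGO2, the Argonaute that cuts target RNA, with 2 siRNA 1 sites and 1 siRNA 2 site, had 89.6 and 92.2 CPM in siTotal1, against 57.6 and 66.6 CPM in siTotal2, and 73.9 and 76.2 CPM in mock and 69.3 and 69.7 CPM in siControl. DICER1, the nuclease that makes microRNAs, had 136 and 137 CPM in siTotal1, against 84.8 and 97.4 CPM in siTotal2, and 96.6 and 97.7 CPM in mock and 136 and 139 CPM in siControl. TNRC6C and AGO2 were higher than both controls in siTotal1 and lower than both in siTotal2, while DICER1 was level in siTotal1 and siControl.

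The CCAAT word that NF-Y binds was looked for on either strand from 250 bases before to 50 after the start of each gene, in RefSeq promoters. It was in 34.3% of 3180 promoters of genes higher in siTotal1, in 37.9% of 2698 of genes lower in siTotal1 and in 37.1% of 5621 of genes not called, against 35.7% of all 27305 promoters in the table. Of the genes lower than both controls in siTotal1, 41.5% had it, against 35.1% of those lower than both controls in siTotal2. The presence of the word is a description of these windows and not of binding.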

How the data were processed

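Polyadenylated RNA was measured in 12 libraries of HCT116 cells in 6 groups of 2, taken from the sample titles. The deposited values were raw counts of reads per Ensembl gene, with totals of 36068065 to 37023097 reads in siTotal1 and 35758539 to 38246541 in siTotal2, and 35604197 to 49746637 over all libraries. For hg19 as the build and STAR 2.4.0f1 and featureCounts as tools, the source is the submitters' processing notes, which give no settings. The annotation release and the counting strand were not given in the sources used here. No column belonged to other samples.

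Low genes were removed with filterByExpr (minimum count 10, minimum total 15), and the rest were fitted in edgeR 4.0.16 (R 4.3.3) on all 12 libraries with TMM scaling and a robust quasi-likelihood model of the 6 groups (6 residual degrees of freedom). The quasi-likelihood F-test was used with Benjamini-Hochberg adjustment over 17730 genes, and called at an adjusted p under 0.05. A positive log2 difference means higher in siTotal1. CPM values are TMM-scaled. The p-values cover the spread between duplicates and not between siRNA sequences. The script was tested on simulated data.

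Symbols were found for 52526 of the 63677 identifiers. Positions, transcripts and 3′ untranslated regions are from GENCODE 29 on GRCh38, promoters from RefSeq on GRCh38, matched by identifier or symbol and not from hg19.

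Named genes were the NF-Y subunits, the 15 largest called rises and falls with an average log2 CPM above 1, the 5 largest each way in a departure class, up to 6 called members of a list, and the genes with the longest siRNA matches. A few genes that these rules name are not reported here. The members, lists and rules were chosen with earlier results of these data known. Alternatives were DESeq2 1.42.0, its size factors in edgeR, no filter, a replicate block, the 4 siTotal libraries alone, and each library left out. Duplicate libraries were checked against counting noise and exceeded it in all groups, with a chi-square of 1.87 to 7.89 per degree of freedom.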

Additional observations from a re-analysis of the deposited data

Results flagged for a closer look

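A count of 305 genes was singled out because siTotal1 and siTotal2 departed from both controls in opposite directions and also differed from each other. The 3 largest each way among those with an average log2 CPM above 1 are given here. HKDC1 (1.91), JUN (1.69) and CPA4 (1.44) were higher in siTotal1, as log2 differences between siTotal1 and siTotal2. MSRB3-AS1 (-2.83), PSMB9 (-2.59) and PAQR8 (-2.44) were lower. In each of these 6 genes every siTotal1 library lay on one side of all 4 control libraries and every siTotal2 library on the other. The genes were picked by their calls in these same libraries, so this separation follows from the choice and adds no support. The difference itself was tested with edgeR (adjusted p under 0.05). The direct comparison of the siTotal groups is the test of the difference between their effects, since both are set against the same controls.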

How the results depend on the processing

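The direct comparison called 7707 genes with DESeq2 size factors in edgeR, 7558 without a filter, 7030 from the 4 siTotal libraries alone and 6343 by DESeq2. Leaving out 1 library gave 6379 to 7841 genes, 688 to 1027 at 2-fold or more, 3045 to 3940 for siTotal1 and 1985 to 3118 for siTotal2 against both controls, and NFYA differences of 0.0071 to 0.056. The departure classes then held 1712 to 2365 (siTotal1 only), 1043 to 1548 (siTotal2 only), 202 to 362 (opposite), 157 to 253 (same direction) and 2674 to 4094 (neither) genes. DESeq2 put 175 genes in the same-direction class and called 1 NF-Y subunit, 2 fibroblast markers and 7 mitochondrial transcripts, against 2, 0 and 2 by edgeR. The 8-base match raised the share of lower genes for siRNA 1 to 39.6%. For siRNA 2 it lowered the share of higher genes to 46.7%, with only 30 genes. The cause of these shifts was not tested.

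Of 2677 recalculations over 206 named genes, 2617 kept direction and side of the threshold, 58 lost the call, 2 gained it and 0 reversed. Replicate numbers did not pair the samples (correlation of same-numbered deviations -0.0851 to 0.0991), and with the number as a replicate block 7794 genes were called. The 2 libraries per group, single wells of 1 line and raw gene counts limit what small differences can show.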

Other observations

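Of 17 Wnt and stem cell genes 7 were lower in siTotal1, 1 was higher and 9 were not called (median -0.16), against 20.6% lower and 23.3% higher of all genes. Of 6 intestinal differentiation genes tested 2 were lower, 1 was higher and 3 were not called. AXIN2, a feedback inhibitor of Wnt signalling, had 17.6 and 20.0 CPM in siTotal1, against 25.6 and 26.6 CPM in siTotal2, and 19.9 and 21.1 CPM in mock and 5.31 and 5.44 CPM in siControl, so siControl was far below the other 3 groups. EPHB3, a receptor kinase of the crypt, had 5.61 and 5.24 CPM in siTotal1, against 10.1 and 10.2 CPM in siTotal2, with 7.97 and 9.22 CPM in mock and 7.54 and 8.54 CPM in siControl. KRT20, a keratin of differentiated intestinal cells, had 0.500 and 0.813 CPM in siTotal1, against 4.04 and 5.21 CPM in siTotal2, and 0.952 and 0.987 CPM in mock and 0.762 and 0.970 CPM in siControl, and only siTotal2 was called above both controls there.

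Apoptosis genes were evenly divided, 9 higher and 9 lower of 28, as were p53 targets, 10 higher and 9 lower of 28. PMAIP1, which encodes the BH3-only protein NOXA, had 113 and 95.7 CPM in siTotal1, against 52.96 and 53.3 CPM in siTotal2, and 51.0 and 52.5 CPM in mock and 111 and 124 CPM in siControl, with siTotal1 near siControl and siTotal2 near mock. TP53INP1, a p53-induced autophagy and stress gene, had 25.7 and 26.1 CPM in siTotal1, against 41.9 and 45.7 CPM in siTotal2, and 23.3 and 25.5 CPM in mock and 7.70 and 8.94 CPM in siControl. Of 27 lysosome and autophagy genes 11 were higher and 7 lower in siTotal1, and of 28 glycolysis and hypoxia genes 6 were higher and 6 lower. Of all genes 23.3% were higher and 20.6% lower, and the glycolysis and hypoxia list was close to those shares. Neural markers were detected unevenly, and of the 4 tested 3 were lower and 1 higher in siTotal1. SYT1, a synaptic vesicle protein gene, had 59.5 and 61.2 CPM in siTotal1, against 79.2 and 84.6 CPM in siTotal2. SNAP25 had 0.305 and 0.392 CPM in siTotal1, against 1.99 and 1.56 CPM in siTotal2. TUBB3 was also lower (-0.47), whereas MBP was higher (0.18). ELAVL4 had 0 reads in every library. Blood cell markers summed to under 1 CPM in every library.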
